A study of Drosophila melanogaster with 12 samples.

Results

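Transcript levels in fly heads around dawn were compared with levels around dusk, on a light/dark day and on the day of constant darkness after it. The material was heads of adult Drosophila melanogaster of the genotype y w, that is with mutations in yellow, a gene of body pigment, and white, a gene of eye pigment. The 8 arrays were chosen by their labelled hour, out of 12 arrays in all. The dawn group held the arrays at 24 h and 4 h of the light/dark day (LD; ZT24 and ZT4) and of the dark day (DD; CT24 and CT4). The dusk group held the arrays at 12 h and 16 h (ZT12, ZT16, CT12 and CT16). Zeitgeber time (ZT) counts hours from lights-on, and circadian time (CT) counts them from the hour at which the lights would have come on. Both groups had the same genotype and the same entrainment, with light and dark each lasting 12 h. The labels name no other allele or agent, and they give no age or sex. Of the LD arrays, ZT4 fell in the light and ZT16 in the dark, with ZT24 and ZT12 at the light transitions. All 4 DD arrays were taken in darkness.

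Each array came from a pool of about 100 to 200 heads and was the only one at its time point. The 4 arrays of a group were therefore different clock hours and not repeats of a condition, and a p-value measures the scatter of arrays around the phase and day means, which may be technical. Expression was given as a log2 value per probe set, and a gene was represented by its probe set of highest mean, which gave 10843 genes. Differences below are dawn minus dusk on this log2 scale with day as a covariate, so that a positive value means a higher level at dawn. In pooled heads, fewer cells of a type and less RNA per cell cannot be told apart.

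The circadian clock of flies is a transcriptional feedback loop. The proteins CLOCK (CLK) and CYCLE (CYC) activate period (per), timeless (tim) and vrille (vri), whose transcripts in heads peak around the first part of the night. PERIOD and TIMELESS then enter the nucleus and inhibit CLK and CYC, while VRILLE represses Clk and PAR-domain protein 1 (Pdp1) activates it, so that Clk transcript runs opposite to per and tim. In heads, much of the rhythmic RNA comes from photoreceptors, glia and fat body as well as from the clock neurons.

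Several arrays stood apart from the others before any gene was compared. The 3' minus 5' signal of control transcripts was 3.12 at ZT4, 3.45 at CT12 and 2.64 at CT4, and between 1.69 and 2.20 on the other 9 arrays. Transcripts of tissue outside the head also varied. The mean log2 level of 34 measured midgut enzyme genes (of 39 listed) ran from 6.32 to 7.085 over the dawn arrays, and in the dusk group it was 7.63 at ZT12 and 7.62 at CT12 but 5.90 at ZT16 and 5.88 at CT16. The level of 25 male accessory gland and testis genes (of 32) was highest at CT12 (6.20) and CT4 (5.49) and lowest at ZT16 (4.20) and CT16 (4.22). That of 21 muscle genes (of 27) was highest at CT12, at 7.72. Phototransduction genes, which mark the photoreceptors of the head, had a mean level of 7.06 to 7.64 over the 12 arrays, against array medians of 4.93 to 4.96. A log2 scale has no zero, so no marker could be called absent. The dawn minus dusk fit, the differences of the named genes, the list medians and the count of genes with the same sign on both days were also computed without ZT4 and CT12.

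**Figure D1:**
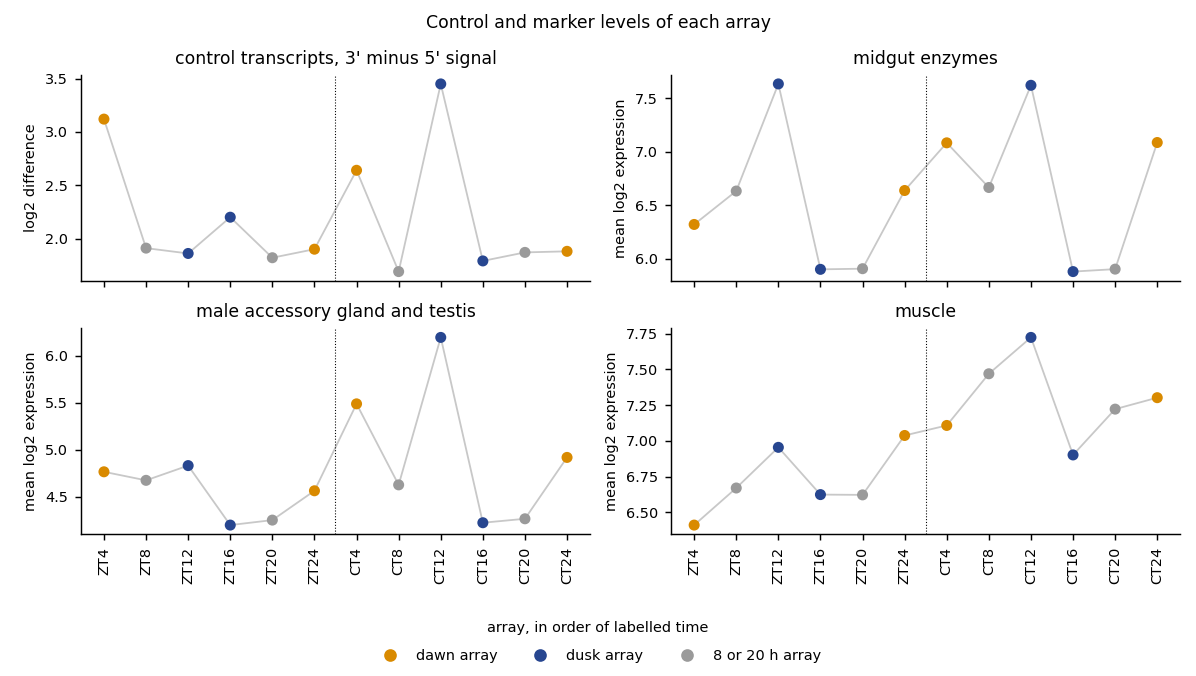
Control and marker levels of each array. The vertical axes give the log2 difference between the 3' and 5' probe sets of control transcripts and the mean log2 level of 3 marker lists, the horizontal axis gives the array in order of labelled time, and colours mark dawn, dusk and other arrays. ZT4, CT4 and CT12 have the highest control difference, and the 2 dusk hours of each day lie at opposite ends of the midgut level.

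No probe set passed the test of dawn against dusk over the 8 arrays. With limma and Benjamini-Hochberg adjustment at 0.05, 0 of 13966 probe sets (0%) passed, and the smallest adjusted p was 0.345. An unadjusted p under 0.05 was reached by 304 probe sets (2.18%), where chance alone would give 698, and by 234 of the 10843 genes (2.16%). The values below are therefore descriptions of these arrays, and no single gene is called changed.

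The largest dusk-high differences that held on both days belonged to the feedback loop of the clock. Usp8, which encodes a ubiquitin-specific protease reported to act on CLK in flies, had log2 levels of 5.09 at ZT24, 5.98 at ZT4, 4.97 at CT24 and 5.62 at CT4. Its dusk levels were 7.62 at ZT12, 7.53 at ZT16, 7.15 at CT12 and 6.61 at CT16. Every dusk array lay above every dawn array, on both days. The difference was -1.81 ± 0.25 (SE; 4 dawn and 4 dusk arrays; limma adjusted p = 0.665), or 3.52-fold higher at dusk, with -2.04 on the LD day and -1.59 on the DD day.

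The gene tim, which encodes the partner of PERIOD, gave dawn levels of 5.29 at ZT24, 5.16 at ZT4, 5.49 at CT24 and 4.39 at CT4. Its dusk levels were 7.11 at ZT12, 7.70 at ZT16, 5.64 at CT12 and 6.35 at CT16. The groups did not overlap, though CT12 lay only just above CT24, and both DD dusk arrays were below both LD dusk arrays. The difference was -1.62 ± 0.34 (limma adjusted p = 1), with -2.18 in LD and -1.05 in DD. A second probe set of tim gave -1.18 ± 0.30, and another, of low signal, gave -0.09 ± 0.07.

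The repressor gene vri had dawn levels of 5.46 at ZT24, 5.94 at ZT4, 5.75 at CT24 and 5.42 at CT4. Its dusk levels were 7.07 at ZT12, 7.54 at ZT16, 7.24 at CT12 and 6.32 at CT16. Again no dawn array reached a dusk array, and the lowest dusk value was that of CT16. The difference was -1.40 ± 0.24 (limma adjusted p = 0.975), with -1.60 in LD and -1.20 in DD. Usp8, tim and vri were the only 3 genes of the 10843 with a difference of at least 1 in the same direction on both days.

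For per the amplitude was smaller. Its dawn levels lay within 5.52 to 5.61, and its dusk levels were 6.01 at ZT12, 6.11 at ZT16, 6.10 at CT12 and 5.72 at CT16. The groups did not overlap, and the difference was -0.41 ± 0.10 (limma adjusted p = 1), a 1.33-fold higher level at dusk. Clk, the activator gene, ran the other way at a low signal, below the median of all array values (4.95). Its dawn levels were 3.64 at ZT24, 4.40 at ZT4, 3.55 at CT24 and 3.58 at CT4, and its dusk levels were 3.03, 3.04, 3.49 and 3.11 at ZT12, ZT16, CT12 and CT16. The groups did not overlap, with CT12 next to the dawn values and ZT4 well above the other dawn arrays. The difference was 0.63 ± 0.21 (limma adjusted p = 1), with 0.99 in LD and 0.27 in DD, and it was 0.53 without ZT4 and CT12.

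**Figure D2:**
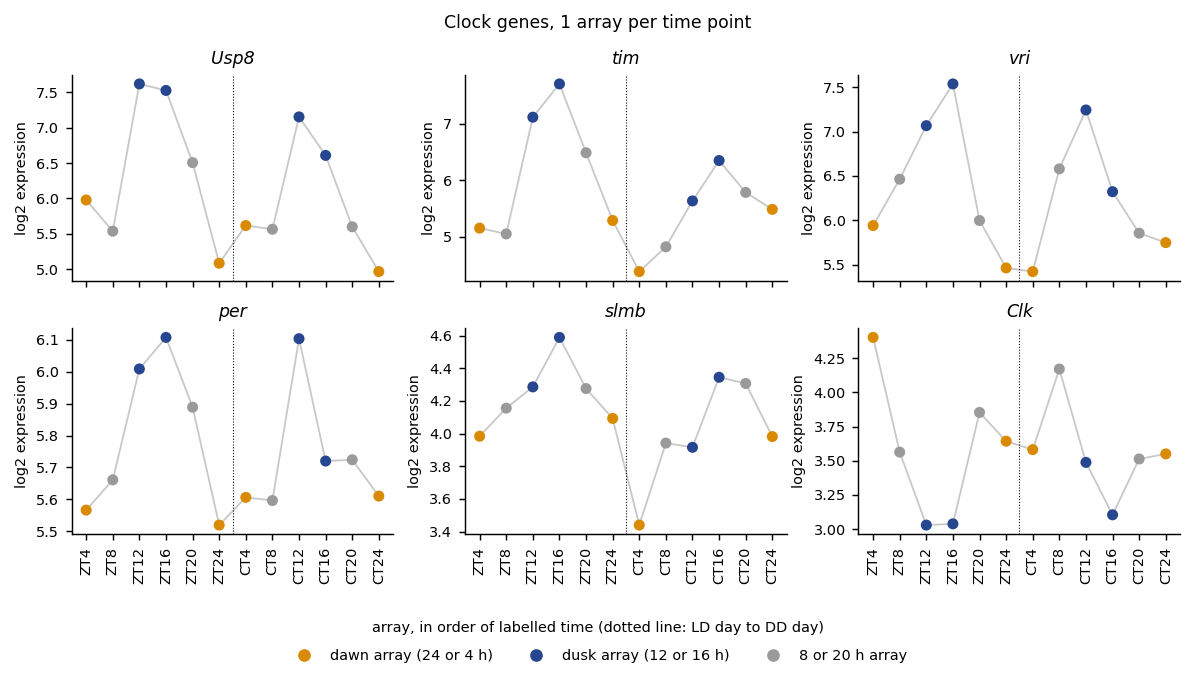
Log2 expression of 6 clock genes on the 12 arrays, 1 array per point, in order of labelled time. In the panels of Usp8, tim, vri and per all 4 dusk arrays lie above all 4 dawn arrays, in that of Clk all lie below, and in that of slmb the dusk array CT12 lies among the dawn arrays.

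Across all 16 measured members of the clock list (of 20), 8 were higher at dusk on both days, against 21.2% of all genes, and 2 were higher at dawn on both days, against 19.6% of all genes. The list is made of genes known to take part in the clock, and several were known to cycle in such data. The 8 were per, tim, vri, Usp8, cyc, slmb, Pdp1 and cwo, and the 2 were Clk and kis. Without ZT4 and CT12, Pdp1 (0.06) and cwo (0.0005), which encodes a repressor that binds the same sites as CLK, no longer lay on the dusk side. That left 6 dusk-high and 2 dawn-high members, against 18.0% and 17.9% of all genes that met both conditions. The F-box gene slmb, whose product targets PERIOD for degradation, gave -0.41 ± 0.15, with dawn levels of 3.44 to 4.09 and dusk levels of 3.92 to 4.59, so that the groups overlapped. The partner gene cyc differed by -0.11 ± 0.09 and the chromatin remodeller gene kis by 0.12 ± 0.08. Other probe sets, of lower signal, did not all keep the sign on both days. For cwo such a probe set gave 0.126 in LD and -0.54 in DD. For kis one gave 0.054 in LD and -0.23 in DD, and another gave 0.04 and 0.011.

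The other 6 clock members had opposite signs on the 2 days. The photoreceptor gene cry gave -0.22 in LD and 0.54 in DD, with its lowest levels among the 8 compared arrays at CT12 (7.17) and ZT4 (7.54). The kinase gene dco gave 0.002 in LD and -0.54 in DD, with its highest levels on the same arrays, 7.46 at CT12 and 7.01 at ZT4. The remaining 4 were jet, tws, Pdf, the neuropeptide gene of the clock neurons, and Pdfr, its receptor, and their differences over both days lay between -0.05 and 0.10. The median difference of the 16 members was -0.112, against -0.0015 over all genes.

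On the dawn side the leading gene was Culd, which encodes a membrane protein needed for rhodopsin trafficking in photoreceptors. It had levels of 8.44 at ZT24, 8.34 at ZT4, 8.43 at CT24 and 8.55 at CT4. At dusk it had 7.26 at ZT12, 7.28 at ZT16, 7.30 at CT12 and 7.78 at CT16. The dawn arrays lay close together, well above the dusk arrays, of which CT16 was the highest. The difference was 1.04 ± 0.11 (limma adjusted p = 0.345), or 2.05-fold higher at dawn, with 1.12 in LD and 0.95 in DD. This was the smallest adjusted p of the comparison. It passed in 2 alternatives, a fit of all 12 arrays (adjusted p = 0.0377) and the fit without CT16 (adjusted p = 0.0494), and it was between 0.114 and 1 in the other 21.

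CG10433 had dawn levels of 9.52, 9.55, 9.43 and 9.45 at ZT24, ZT4, CT24 and CT4, and dusk levels of 8.80, 9.14, 8.77 and 8.81 at ZT12, ZT16, CT12 and CT16. Its groups did not overlap, and the difference was 0.61 ± 0.09 (limma adjusted p = 0.665). Nagk, which encodes N-acetylglucosamine kinase, a salvage enzyme for amino sugars, had dawn levels of 8.51, 8.31, 8.45 and 8.33 and dusk levels of 7.80, 7.86, 7.95 and 7.68 in the same order of arrays. The groups were again apart, by 0.58 ± 0.09 (limma adjusted p = 0.817), and the LD and DD differences were alike at 0.58 and 0.57.

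CG13305 had dawn levels of 6.51, 5.48, 6.04 and 6.10 and dusk levels of 4.69, 4.94, 4.98 and 5.24. Its difference of 1.07 ± 0.21 was as large as that of Culd with a wider spread, and ZT4 was its lowest dawn array. Dip-B, a dipeptidase gene, had dawn levels of 8.40, 8.34, 8.21 and 8.09 and dusk levels of 7.66, 7.81, 7.91 and 7.51, a difference of 0.54 ± 0.11. CG6126, which encodes a predicted organic cation transporter, had dawn levels of 8.41 to 8.79 and dusk levels of 8.0 to 8.24, a difference of 0.43 ± 0.10. None of these groups overlapped.

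**Figure D3:**
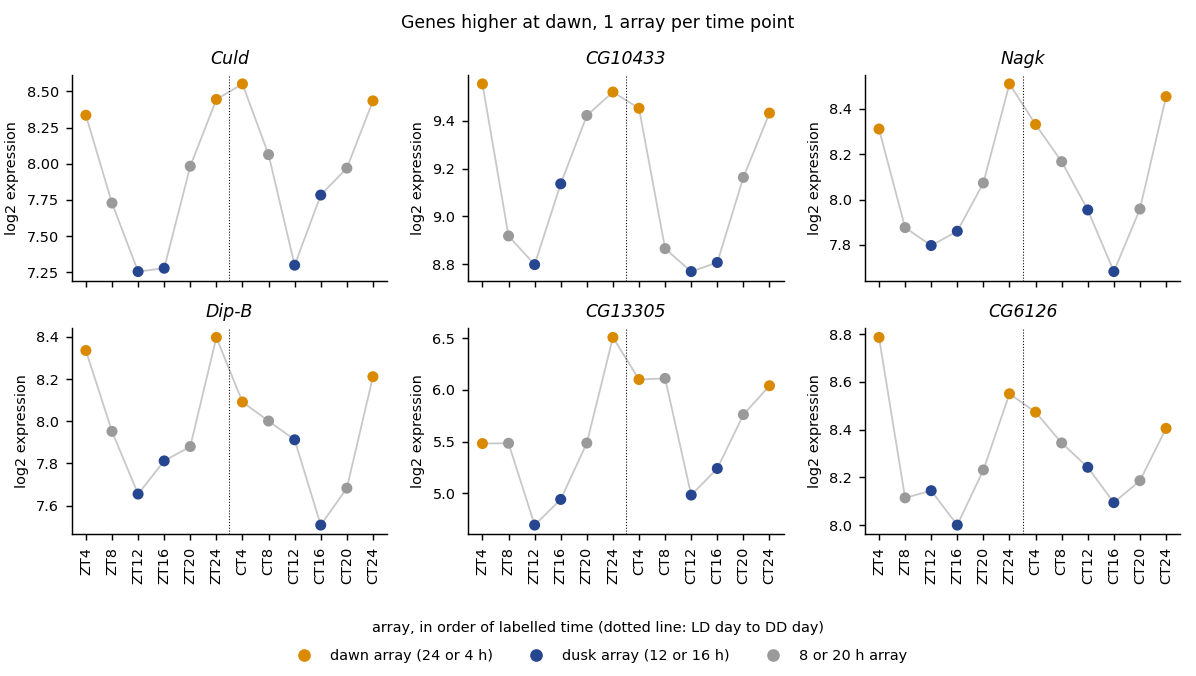
Log2 expression of 6 genes with higher levels at dawn on both days, on the 12 arrays in order of labelled time, 1 array per point. In each panel all 4 dawn arrays lie above all 4 dusk arrays, and the vertical ranges differ between panels.

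The genes named here as the 12 of smallest p in each direction, among those with the same sign on both days and without ZT4 and CT12 and with a mean in the higher phase at or above the median of all values, had dawn-high differences of 0.252 to 1.07 and dusk-high differences of 0.23 to 1.81. None passed the adjusted threshold. The other dawn-high genes included tko, which encodes a protein of the mitochondrial ribosome (0.38 ± 0.09), GstZ2, a glutathione transferase gene (0.36 ± 0.09), and atilla, which encodes a membrane-anchored protein of the Ly6 family (0.28 ± 0.07). CG8157 (0.58 ± 0.13), CG6290 (0.36 ± 0.09) and CG18507 (0.25 ± 0.07) completed the 12. On the dusk side stood Nedd4, which encodes a ubiquitin ligase (-0.37 ± 0.09), and tgo, which encodes the common partner of several bHLH-PAS transcription factors, the protein family of CLK and CYC (-0.34 ± 0.09). Further dusk-high genes were Gclm, the regulatory subunit of the first enzyme of glutathione synthesis (-0.44 ± 0.12), Wdr59, a subunit of a complex upstream of TOR signalling (-0.27 ± 0.07), AP-2alpha, a clathrin adaptor subunit (-0.37 ± 0.11), and Cyp6a22, a cytochrome P450 gene (-0.32 ± 0.09). CG14275 (-0.38 ± 0.10) and CG30394 (-0.23 ± 0.07) were the last 2. A second probe set of CG30394, of low signal, gave -0.16 in LD and 0.03 in DD.

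Separation of the groups was used as a second description. In 118 genes (1.09%) all 4 dawn arrays lay above all 4 dusk arrays, and in 83 genes (0.765%) all lay below. These counts were not tested against chance, which also separates some genes, so separation alone does not mark a gene as changed. Of these 201 genes, 105 had a mean in the higher phase at or above the median of all values. The median size of the 201 differences was 0.19, and only 10 reached 0.5. Among the larger ones were Nt5a (0.51 ± 0.16), Apoltp, which encodes a lipid transfer particle of the blood (0.40 ± 0.11), and CG9649, a predicted serine protease gene (0.48 ± 0.14), all higher at dawn. A second probe set of CG9649 gave 0.40 in LD and -0.09 in DD. On the dusk side were Ae2, an anion exchanger gene (-0.31 ± 0.10), and RPA1 (-0.30 ± 0.11), whose second probe set gave 0.08 ± 0.12.

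The arrays at 8 h and 20 h took no part in the comparison. Their mean lay between the dawn mean and the dusk mean in 155 of the 201 separated genes (77.1%), against 32.1% of all genes and 46.7% of the genes with the same sign on both days. The 201 genes were chosen for a gap between the groups. Such a gap by itself raises this share, so the share is no independent support. For Culd the mean was 7.90 at 8 h and 7.98 at 20 h, between 8.44 at dawn and 7.41 at dusk. For vri it was 6.52 at 8 h and 5.93 at 20 h, and for tim it was 4.94 at 8 h and 6.14 at 20 h. Thus vri was already above its dawn mean of 5.64 at 8 h, whereas tim was not above its dawn mean of 5.08. This interval was not tested, with 1 array per hour and day.

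Over all genes the direction of the dawn-dusk difference was more often opposite than equal on the 2 days. Of 10843 genes, 4424 (40.8%) had the same sign, 2126 with higher levels at dawn (19.6%) and 2298 with higher levels at dusk (21.2%). Of these, 3892 also had that sign without ZT4 and CT12, 1941 dawn-high (17.9%) and 1951 dusk-high (18.0%). The correlation across genes between the LD and the DD difference was -0.286, where genes are not independent and all genes share the same 8 arrays. Without ZT4 and CT12 the same sign was found in 5774 genes (53.3%), and the correlation was 0.152. Leaving out ZT4 alone gave 51.9%, leaving out CT12 alone gave 54.1%, and leaving out any 1 of the other 6 arrays gave between 36.0% and 47.5%. Split into pairs 12 h apart, ZT4 minus ZT16 correlated with CT24 minus CT12 at -0.648 and with CT4 minus CT16 at 0.495. The part of the 3' minus 5' control difference in this pattern was not tested beyond leaving out the arrays.

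**Figure D4:**
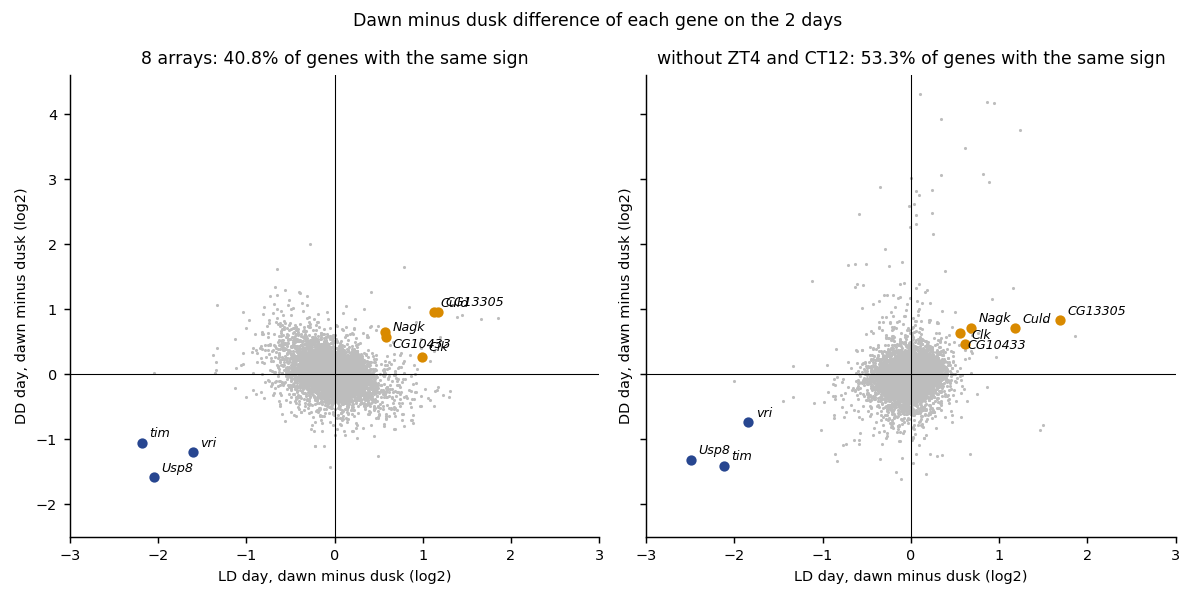
Dawn minus dusk difference of each gene (log2) on the LD day, horizontal axis, and on the DD day, vertical axis, for all 8 arrays and without ZT4 and CT12, 1 grey point per gene. Genes with the same sign on both days make up 40.8% in the first panel and 53.3% in the other, and the named dawn-high and dusk-high genes keep their quadrant.

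A large LD difference was often not followed by one of the same sign in DD. Of the 19 genes at least 1 higher at dawn in LD, 9 (47.4%) were higher at dawn in DD, with a median DD difference of -0.203. That share was close to the share of all genes, of which 5186 of 10843 were higher at dawn in DD. Of the 19 genes at least 1 higher at dusk in LD, 5 were higher at dusk in DD, with a median of 0.135. Usp8, tim and vri were among these 5.

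With a size rule chosen after the values were seen, 18 genes (0.166%) differed by at least 0.5 in the same direction on both days, 13 higher at dawn and 5 higher at dusk. All 18 had the same direction without ZT4 and CT12, but their groups did not overlap in only 7. Besides Culd, CG10433, Nagk and CG13305, the dawn-high genes were Ugt35B1, Cpr72Ec, Acsx3, CG10513, Cyp4g1, Acp95EF, Ebp, EbpII and Mst57Da. Besides Usp8, tim and vri, the dusk-high genes were Hsc70-4 and CG3348.

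Ugt35B1, a UDP-glucuronosyltransferase gene of the antenna, had dawn levels of 7.37 at ZT24, 8.77 at ZT4, 7.36 at CT24 and 9.47 at CT4. Its dusk levels were 6.20 at ZT12, 6.23 at ZT16, 8.01 at CT12 and 7.10 at CT16. Both 4 h arrays were high and CT12 lay among the dawn arrays, and the difference was 1.36 ± 0.52. A second probe set of it gave 0.22 ± 0.21. Cpr72Ec, a cuticle protein gene, had dawn levels of 10.53, 10.83, 8.93 and 11.28 in the order ZT24, ZT4, CT24 and CT4, against 8.76 to 9.29 at dusk. Here CT24 lay among the dusk arrays, and the difference was 1.26 ± 0.47. Hsc70-4, the main constitutive chaperone gene of its family, had dawn levels of 9.61, 9.30, 9.95 and 8.73 and dusk levels of 10.06, 10.06, 10.54 and 9.35, so that CT16 lay among the dawn arrays. Its difference was -0.60 ± 0.32, and -0.23 without ZT4 and CT12.

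The genes of the male reproductive tract among the 18 differed more between the 2 dusk hours than between dusk and dawn. Mst57Da, an accessory gland gene, had dawn levels of 8.39 to 10.11, and at dusk it had 9.74 at ZT12, 10.85 at CT12, 5.62 at ZT16 and 5.77 at CT16. Ebp and EbpII, genes of the ejaculatory bulb, and Acp95EF, an accessory gland gene, were also higher at both 12 h arrays than at both 16 h arrays, with 9.61, 10.63 and 10.04 at CT12 and 4.17, 4.11 and 4.67 at CT16. Cyp4g1, a P450 gene of oenocytes, which lie in the abdomen, had 9.27 at ZT12 and 10.78 at CT12 but 5.24 at ZT16 and 6.0 at CT16. The standard errors of these 5 differences, 1.12 to 1.40, exceeded the difference itself in 4 of the 5, with differences of 0.86 to 1.21. The midgut and male tract levels given above were high and low on the same dusk arrays. Without ZT4 and CT12 the 5 differences were 1.92 to 2.55. Without CT16, 4 of the 5 had a difference below 0.

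Gene lists for head functions were then described by their counts and medians, with no test of a list. Of 37 measured ribosomal protein genes, 13 were higher at dawn on both days and 2 were higher at dusk, against 19.6% and 21.2% of all genes, and the median difference was 0.116 (0.04 in LD, 0.16 in DD). RpS21 had dawn levels of 11.47 to 11.75 and dusk levels of 11.13 to 11.40, without overlap, and a difference of 0.27 ± 0.09. RpL28 gave 0.19 ± 0.08 and RpS30 gave 0.16 ± 0.08. Of 63 genes of mitochondrial respiration, 15 were higher at dawn on both days and 5 at dusk, a dawn share close to that of all genes, with a median of 0.071. Its complex I subunit genes ND-PDSW, ND-B22 and ND-B14 gave 0.34 ± 0.12, 0.19 ± 0.09 and 0.22 ± 0.11. These differences were smaller than those of Usp8, tim, vri, Clk, per and slmb, and no member passed the adjusted threshold. RpS30 gave 0.08 without ZT4 and CT12.

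The list of phototransduction genes had a median of 0.0475. Of its 23 members, 4 were higher at dawn on both days and 3 at dusk, against 19.6% and 21.2% of all genes. The 4 were Arr2, the main arrestin of photoreceptors (0.26 ± 0.11), inaD, the scaffold of the signalling complex (0.61 ± 0.29), inaC, its protein kinase C (0.29 ± 0.17), and stops, which acts on the phospholipase of the cascade (0.24 ± 0.11). Arr2 and inaC each gave 0.15 without ZT4 and CT12. The other 2 probe sets of stops gave 0.21 ± 0.46 and -0.03 ± 0.31, both below 0 in LD (-0.33 and -0.24). For inaD the dawn levels were 8.61, 7.67, 8.44 and 9.17 at ZT24, ZT4, CT24 and CT4, and the dusk levels were 7.597, 7.70, 7.59 and 8.55, so that ZT4 and CT16 crossed. Of 10 genes of transmitter recycling in vision, 4 were higher at dawn on both days and 3 at dusk, to be read against the same shares. The list median was 0.126, and -0.0143 without ZT4 and CT12. The list was led by ebony (e), which joins histamine to beta-alanine in glia. The gene had dawn levels of 6.17 to 6.86 and dusk levels of 5.88 to 6.28. Its difference was 0.48 ± 0.14, with 0.37 in LD and 0.59 in DD, and 0.30 without ZT4 and CT12.

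Detoxification lists had medians near 0, and their counts are read against the shares of all genes, 19.6% dawn-high and 21.2% dusk-high. Of 33 UDP-glucuronosyltransferase genes, 7 were higher at dawn on both days and 6 at dusk, near those shares. Of 34 glutathione transferase genes, 9 were higher at dawn on both days and 3 at dusk, and the median was 0.14 in LD and -0.03 in DD. Over both days the median of this list was 0.0397, and it was -0.0365 without ZT4 and CT12. GstD4 had non-overlapping groups (0.28 ± 0.07). Of 81 P450 genes, 26 were higher at dawn and 16 at dusk, with a median of 0.019. Without ZT4 and CT12, 18 dawn-high and 14 dusk-high P450 genes kept that sign, against 17.9% and 18.0% of all genes. The P450 median was then -0.0315. Cyp6a21 gave 0.74 ± 0.32 and Cyp4p1 gave 0.21 ± 0.09, in contrast to Cyp6a22 above. Of 35 odorant-binding protein genes, 10 were higher at dawn and 2 at dusk, with a median of 0.0315, among them Obp56h (0.53 ± 0.28, and 0.27 without ZT4 and CT12) and Obp83cd (0.20 ± 0.10). Cuticle protein genes were split, with 22 of 69 higher at dawn and 18 at dusk. Cpr67B gave 0.67 ± 0.25 and Cpr11B gave -0.55 ± 0.21, and -0.84 without ZT4 and CT12. GstD4, Cyp6a21, Cyp4p1, Obp56h and Obp83cd were of low signal, with dawn and dusk means below the median of all values (4.95).

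Genes of fuel metabolism, stress and immunity had members on both sides. Of 25 genes of carbohydrate digestion and storage, 8 were higher at dawn on both days and 5 at dusk, to be read against 19.6% and 21.2% of all genes. The list median was 0.0212, and -0.00775 without ZT4 and CT12. Pepck1, the key enzyme of gluconeogenesis, gave 0.47 ± 0.21 and fbp, a later enzyme of that pathway, gave 0.46 ± 0.20. The Pepck1 means at 8 h (9.85) and 20 h (9.26) were both above its dawn mean (9.10). Lsd-1, which encodes a perilipin of the lipid droplet, gave -0.43 ± 0.14, with dawn levels of 7.40 to 8.20 and dusk levels of 7.77 to 8.64. Of 24 lipid genes, 4 were higher at dawn on both days and 8 at dusk, against 19.6% and 21.2% of all genes. The medians of the list were -0.24 in LD and 0.004 in DD. Of 9 heat shock genes, 0 were higher at dawn on both days and 3 at dusk, a small list to be read against the same shares. The endoplasmic reticulum chaperone gene Hsc70-3 gave -0.32 ± 0.13, and -0.13 without ZT4 and CT12. Its second probe set, of low signal, gave 0.18 ± 0.21. Among 19 immunity genes, Listericin gave 0.47 ± 0.17 and the antifungal peptide gene Drs gave -0.54 ± 0.24. The scavenger receptor gene pes gave -0.31 ± 0.13 and the activity-regulated gene Arc1 gave -0.58 ± 0.30, and ple, which encodes tyrosine hydroxylase, gave 0.22 ± 0.14.

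Other lists had medians of opposite sign on the 2 days. Glycolysis genes (10) had a median of -0.289 in LD and 0.408 in DD, and aldolase (Ald1) was at -0.23 and 0.85, with its lowest levels among the 8 arrays at CT12 (9.09), CT16 (9.62) and ZT4 (9.63). Proteasome genes (39) had medians of -0.173 and 0.162, and aminoacyl-tRNA synthetase genes (18) had -0.133 and 0.169. Genes of antioxidant defence (17) had -0.385 and 0.057, among them catalase (Cat), at -0.83 and 0.005. Without ZT4 and CT12 the medians over both days were -0.08 for glycolysis, -0.005 for proteasome, -0.0015 for the synthetases and -0.05 for antioxidant defence. Lsp2, a storage protein gene of the fat body, gave -1.35 in LD and 0.01 in DD, with 8.10 and 8.54 at ZT12 and ZT16 against 6.63 to 7.37 on the other 6 of the 8 arrays. Of 19 ovary and eggshell genes, 4 were higher at dawn on both days and 10 at dusk, against 19.6% and 21.2% of all genes. Unlike the lists above, this one had small medians of the same sign on each day, -0.0375 in LD and -0.071 in DD. Its median was -0.05 over both days, and -0.022 without ZT4 and CT12. The lists not described here had medians between -0.07 and 0.08 over both days.

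**Figure D5:**
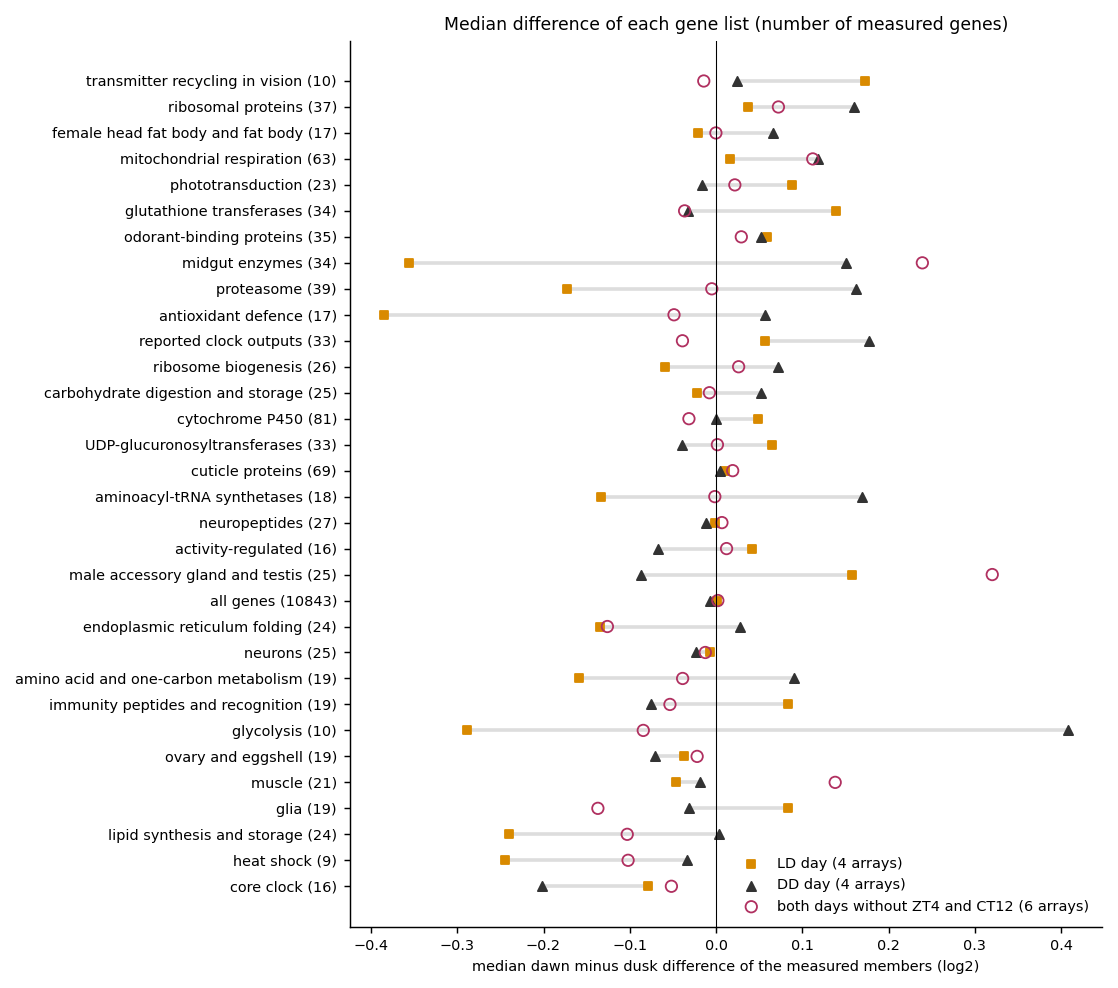
Median dawn minus dusk difference (log2) of the measured members of each gene list on the LD day (squares), on the DD day (triangles) and over both days without ZT4 and CT12 (open circles), with the number of measured genes. Glycolysis, proteasome and aminoacyl-tRNA synthetase genes lie on opposite sides of 0 on the 2 days, and ribosomal protein genes lie above 0 in all 3.

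Of a list of 33 measured head transcripts reported to cycle, 11 were higher at dawn and 8 at dusk on both days, against 19.6% and 21.2% of all genes. An unadjusted limma p under 0.05 was reached by 12 of the 33, against 2.16% of all genes. The list includes Culd, CG10433, Ugt35B1 and e, some of which were known from earlier results of these arrays, so its count is not independent.

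The difference between the days was tested as an interaction of phase and day. No probe set passed (0 of 13966, 0%; limma with Benjamini-Hochberg adjustment), the smallest adjusted p was 0.885, and 382 (2.74%) had an unadjusted p under 0.05. Among the 10 genes of smallest p was Ank2, a cytoskeletal anchor gene of axons, at 0.79 in LD and -0.08 in DD. Its other 3 probe sets, of lower signal, lay between -0.10 and 0.05 on either day. Hk, which encodes a potassium channel subunit, had levels of 5.61 and 5.38 at ZT24 and ZT4 against 5.77 and 5.99 at ZT12 and ZT16, and 6.18 and 6.07 at CT24 and CT4 against 5.67 and 5.68 at CT12 and CT16. A second probe set of Hk gave -0.001 in LD and -0.08 in DD. BetaCOP, a vesicle coat gene, gave -0.23 and 0.44, and the other 7 were CG12547, Dek, CG8675, Sf3a1, CG13917, sau and mei-P26. A second probe set of sau gave -0.63 in LD and -0.006 in DD. CG12547, Dek, CG8675, Sf3a1 and mei-P26 were of low signal, with dawn and dusk means below the median of all values (4.95). The smaller tim difference in DD was thus not separated from array scatter by this test.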

How the data were processed

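Biotin-labelled RNA from sieved heads was hybridized to Affymetrix arrays, 1 per time point, per the labels' protocols. The authors deposited RMA values on the log2 scale, 1 for each probe set, per the submitters' processing notes. The version of RMA, and which arrays were normalized together, was not given in the sources used here. RMA sets arrays to a common distribution, so a shift of most transcripts would not show. Array medians lay between 4.926 and 4.958, and pairwise correlations between 0.956 and 0.993 over the 8 arrays, with no identical pair.

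Of 14010 probe sets, 44 controls were left out. The platform annotation gave 1 gene for 12442, several for 327 and none for 1197, and 12393 matched RefSeq symbols. Those without exactly 1 gene entered the tests and are not named.

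The fit used limma 3.58.1 in R 4.3.3 on 8 arrays, with phase and day (5 residual degrees of freedom; 4 with their interaction), and was tested on simulated data. Of 23 alternatives for dawn against dusk, 22 were planned, and they cover arrays, covariates, normalization, filter and variance model. Named were all clock genes, the 12 of smallest p in each direction with the sign kept (used because fewer than 5 genes passed), the 10 largest differences without overlap in each direction, both among genes whose mean in the higher phase was at or above the median of all values, list members from the 4 of smallest p, and the 10 interaction genes of smallest p. The members, lists and rules were chosen with earlier results of these data known. Promoter sequences were not analysed here.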

Additional observations from a re-analysis of the deposited data

Results flagged for a closer look

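In 93 named genes, 186 groups of 4 arrays were checked for an array far from the other 3, and 14 such arrays were found (7.53%). Chance gives about 1 in 20 among repeats of a condition. The 4 arrays here were different clock hours, and the genes were chosen from the same arrays, so that rate is no measure for them. At dawn these were ZT4 for Clk (4.401) and Nt5a (6.576), and CT4 for inaC (7.015) and slmb (3.44). At dusk CT12 stood apart for Clk (3.488), Nt5a (5.838), Cat (9.167) and stops (6.445). CT16 stood apart for Culd (7.784), Cpr11B (8.017), inaC (6.541) and inaD (8.547). ZT16 did so for CG10433 (9.136) and ZT12 for Cpr72Ec (8.76).

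In 8 of the 93 named genes every dawn array lay on one side of the dusk arrays in LD and on the other side in DD. All 8 had been named for a small interaction p in these same arrays. That choice favours such a reversal, so the reversal is no independent result. The share over all genes was not counted. The DD minus LD change of the difference was -0.989 for CG12547, 0.603 for CG8675, 0.727 for Dek, 0.832 for Hk, 0.58 for Sf3a1, 0.674 for betaCOP, -0.662 for mei-P26 and 0.598 for sau. None passed the interaction test, and the smallest adjusted p of limma there was 0.885. The second probe sets of Hk and sau did not show the reversal, with -0.001 and -0.63 in LD and -0.08 and -0.006 in DD.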

How the results depend on the processing

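The count of probe sets past the threshold was 0 in 21 of 23 alternatives. It was 1 (Culd) with all 12 arrays and 4 phases, and it ranged from 0 to 1 when each array was left out, with Culd passing without CT16. The interaction count also ranged from 0 to 1, since the eggshell gene Cp15 passed without ZT16 (adjusted p = 0.0443), and was 0 in the other alternatives run. The genes of equal sign on both days numbered 2221 with dim probe sets left out (38.7% of the genes left, fewer being counted), 4520 with centred arrays, 4566 with quantile normalization and 5878 without ZT4, CT12 and CT4 (added after seeing the data). Leaving out single arrays gave 3901 to 5865.

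No paired analysis by replicate number was possible because the labels number no replicates; with pairs 12 h apart as a block, 0 passed. Of 83 genes compared, 70 kept their direction in every alternative, among them all 24 of smallest p. Those 24 were chosen from these same arrays by small p and a kept sign. In 20 of them the groups did not overlap, so leaving out an array could not turn them. Single arrays turned 11 genes, with ranges of -0.202 to 1.95 for Acp95EF, -0.0123 to 1.9 for Cyp4g1, -0.17 to 2.01 for Ebp, -0.0708 to 2.54 for EbpII, -0.0078 to 0.122 for Pdf, -0.0074 to 0.234 for Pdfr, -0.249 to 0.0153 for Pdp1, -0.0762 to 0.341 for cry, -0.456 to 0.0086 for dco, -0.0717 to 0.131 for jet and -0.232 to 0.145 for tws. Without ZT4 and CT12, Pdp1 gave 0.0648, cwo 0.0005 and jet -0.0633. Without CT4 as well, Pdp1 gave 0.0984, cwo 0.0919, Pdf -0.0407 and Hsc70-4 0.00314. With array weights, Pdp1 gave 0.025 and jet -0.0399. The cause was not tested.

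With 1 array per time point, fly-to-fly and technical scatter cannot be told apart, and phase and light cannot be told apart on the LD day. Midgut and male tract levels were higher at 12 h than at 16 h on both days. The number of arrays limits the precision.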
